A study of Saccharomyces cerevisiae with 4 samples.

Results

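The genes described here are 6 genes of phosphate and glycerophosphoinositol transport in the budding yeast Saccharomyces cerevisiae, out of 6002 protein-coding genes of the nuclear genome. They are PHO84, PHO89, GIT1, PHO86, PHO87 and PHO90, chosen by function. Their data are the peaks of Pho4 and Cbf1 that overlapped the 1000 bp upstream of each start codon by at least 1 bp. Pho4 libraries came from strain W303 Z1441, in which PHO4 carries a Myc tag (PHO4::9myc::TRP1). Cbf1 libraries came from strain W303 Z1497, with the same tag on CBF1 (CBF1::9myc::TRP1). The labels give 2 libraries per factor and attach to all 4 the same antibody (ab9E10), growth in rich medium at 25 °C and 2 h in phosphate-free medium. Each factor was thus read in 1 strain, under phosphate starvation and no other condition. The labels do not say whether replicates came from separate cultures, so the spread between them may be technical. No untagged or input library was used here, so binding and signal that would arise without the tag cannot be told apart.

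Yeast takes up inorganic phosphate through high-affinity carriers, which are made when phosphate runs short, and low-affinity carriers, which work when it is plentiful. Pho4 is the transcription factor that turns on the starvation genes (the PHO regulon): when phosphate is scarce it stays in the nucleus and binds E-boxes, the motif CACGTG. Cbf1, known for its role at sulfur genes and centromeres, recognises the same motif. A T next to the core on its 5′ side, counted on each strand (a T flank), is known to disfavour Pho4 and to favour Cbf1. ChIP-nexus trims precipitated DNA with an exonuclease up to the crosslinked protein, so a summit can lie close to the bound site. How close the called summits lie was not tested. Where peaks of both replicates overlapped, their summits were a median of 26 bp apart for Pho4 and 46 bp for Cbf1.

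The 6 upstream windows held 7 E-boxes, and all are shown because the results turn on them. PHO84 had 3 and PHO90 had none, and each of the other genes had 1. By comparison, 10.8% of all protein-coding genes had CACGTG in the same window. Each line gives 30 bases of the R64 reference on the coding strand of the gene, with the core in capitals; the upstream distance runs from the start codon to the centre of the core.
PHO84, 411.5 bp upstream (chrXIII:26197-26226, minus strand): tgttatttccagCACGTGgggcggaaatta
PHO84, 433.5 bp upstream (chrXIII:26219-26248, minus strand): atttaatagttcCACGTGgacgtgttattt
PHO84, 877.5 bp upstream (chrXIII:26663-26692, minus strand): ataaaaaagtgtCACGTGataaaaatcact
PHO89, 320.5 bp upstream (chrII:798828-798857, minus strand): atgacaatgcagCACGTGggagacaaatag
GIT1, 515.5 bp upstream (chrIII:299106-299135, minus strand): cttttcgcggcgCACGTGcatgacggtaaa
PHO86, 187.5 bp upstream (chrX:192329-192358, plus strand): ccagcgcgcccgCACGTGctctttatggaa
PHO87, 129.5 bp upstream (chrIII:197300-197329, minus strand): ttgatgatttcgCACGTGggaaaagtaatc
Of the 7 cores, 6 had C or G on both sides, a class that holds 20.1% of the 951 E-boxes in the nuclear genome. The core 877.5 bp upstream of PHO84 was the exception and had a T flank on both strands, as do 11.8% of all E-boxes. The nearer PHO84 core and the PHO89 core shared the 11 bases cagCACGTGgg, which occur around 5 E-boxes of the genome. Both Pho4 lists reached 4 of those 5, and all 4 had a Pho4 summit within 50 bp in both libraries. Those 4 include the PHO84 and PHO89 cores themselves, from which the shared bases were taken. Among all E-boxes with C or G on both sides the share was 79.9%, near which 4 of 4 is unremarkable.

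Pho4 peaks stood upstream of 5 of the 6 genes in both libraries, against 33.6% of the 4620 protein-coding genes that both Pho4 lists reach. PHO90 was the gene without one, and it alone had no CACGTG in its window. Among the 513 reached genes with CACGTG upstream the share was 78.9%, near which 5 of 5 is unremarkable. In each of the 5 genes the summit lay within 25 bp of an E-box without a T flank. Of all nuclear Pho4 peaks, 19.7% in replicate 1 and 22.7% in replicate 2 had an E-box of any flank within 50 bp of the summit. Cbf1 peaks stood upstream of 2 of the 3 genes that both Cbf1 lists reach (GIT1 and PHO87, but not PHO89), against 24.1% of 2508 genes. All 3 have CACGTG upstream. Among the 266 reached genes with that motif the share was 72.6%, near which 2 of 3 is unremarkable. Cbf1 replicate 2, which reaches all 6, had peaks at PHO84, GIT1, PHO86 and PHO87, or 4 genes, against 28.5% of the genes it reaches.

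**Figure D1:**
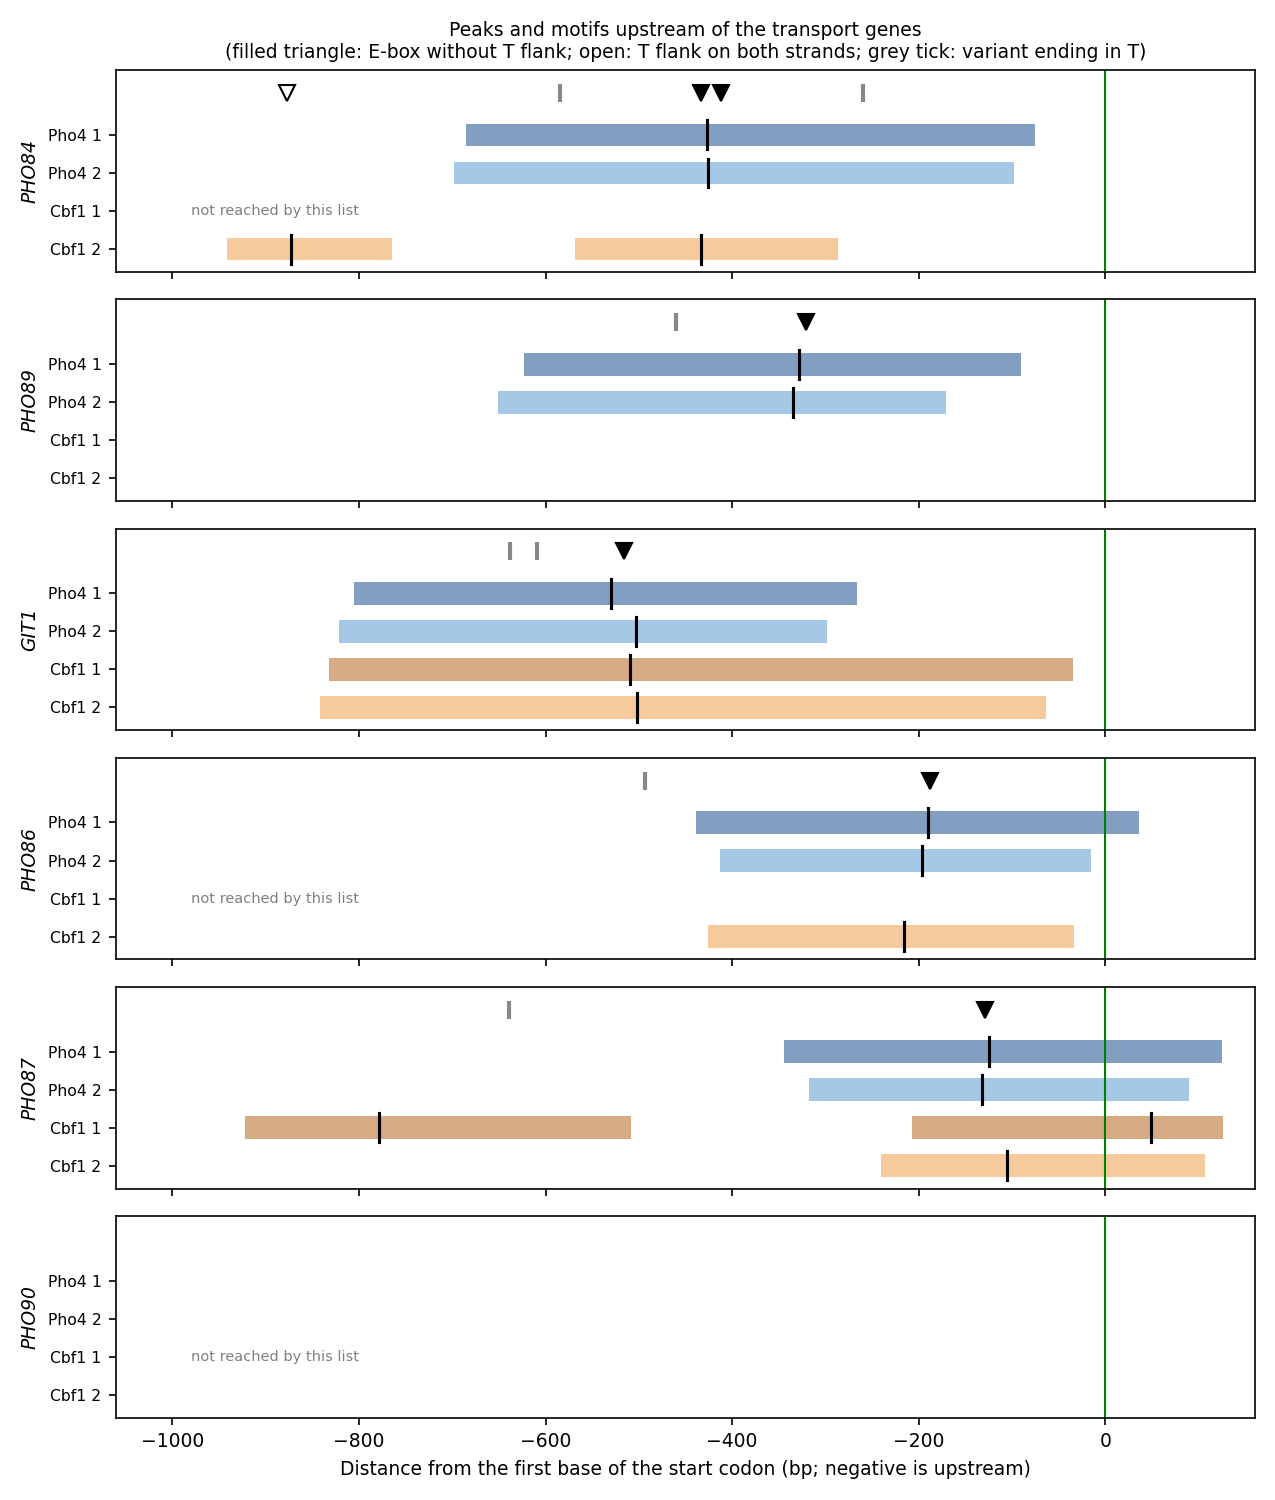
Peaks (bars) and summits (black lines) of each library against the distance in bp from the first base of the start codon of each gene. Filled triangles are E-boxes with no T flank, the open triangle is the E-box with T on both strands and grey ticks are CACGTT on either strand; each Pho4 summit sits under a filled triangle, and under the open triangle there is a peak of Cbf1 replicate 2 and none of Pho4.

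The fold enrichment in the deposited lists is the height of a summit over the local background of the same library, and it is read here by its rank within a list. Nuclear peaks numbered 2005 and 2190 for Pho4 and 920 and 1566 for Cbf1, with median folds of 3.11 and 3.59 and of 2.18 and 2.72. Summit heights in reads, which the fold and p columns imply, had medians of 72 and 45 for Pho4 and 65 and 50 for Cbf1. Intervals on heights below are exact 95% Poisson intervals and, like all intervals here, cover counting error alone. The lists end at different places in the text order of chromosome names. Pho4 replicate 2 ends on chromosome XVI at 937934, while Pho4 replicate 1 ends on chromosome XIV at 68625, Cbf1 replicate 2 on XIV at 6704 and Cbf1 replicate 1 on VII at 856779. Why they end there could not be told, so list sizes, ranks and percentiles refer to the peaks at hand and not to the whole genome. Cbf1 replicate 1 is therefore not analysed here for PHO84, PHO86 and PHO90.

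PHO84 (YML123C, chromosome XIII, 24037 to 25800, minus strand) encodes the high-affinity proton-coupled phosphate carrier, the main one of starved cells. The Pho4 summit lay 427 bp upstream in replicate 1 and 426 bp upstream in replicate 2. The fold was 27.6 and 26.7, which ranked 25 of 2005 and 35 of 2190 peaks. By summit height the same peak ranked 4 in both lists, with 5239 reads (interval 5098 to 5383) and 2747 reads (2645 to 2852). The local background, by which the height is divided, was 189 and 102 reads there, against list medians of 23.0 and 11.8.

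The Pho4 summits at PHO84 fell between its 2 unflanked E-boxes, whose starts are 22 bp apart, at 6.5 and 7.5 bp from the centre of the farther one and 15.5 and 14.5 bp from that of the nearer one. One summit was called per peak, so the lists do not say which of these cores was bound. Both cores lie inside the annotated open reading frame YML122C and the antisense RNA YNCM0001W. The stretch below carries both cores and, at its upstream end, 1 of the 2 CACGTT motifs of the window, with motifs in capitals. It was cut to span the motifs closest to the Pho4 summits. The other CACGTT motif lay slightly farther from them, at 167.5 and 166.5 bp.
PHO84 (chrXIII:26194-26402, minus strand): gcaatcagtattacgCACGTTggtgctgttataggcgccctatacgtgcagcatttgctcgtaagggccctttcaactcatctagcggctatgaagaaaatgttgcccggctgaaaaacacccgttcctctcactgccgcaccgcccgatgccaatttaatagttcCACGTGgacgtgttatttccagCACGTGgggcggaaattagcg
The peaks were 611 and 601 bp wide and covered both CACGTT motifs, yet these lay 157.5 bp or more from the summits.

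Cbf1 replicate 2 had 2 peaks upstream of PHO84. The higher one had its summit 433 bp upstream, 0.5 bp from the centre of the farther of the 2 unflanked cores. Its fold was 3.86 (rank 445 of 1566), from 229 reads (interval 200 to 261). The other had its summit 873 bp upstream, 4.5 bp from the core with T on both strands, with a fold of 3.05 (rank 639) and 181 reads (156 to 209). At that core neither Pho4 library had a peak, and the nearest Pho4 summits were 450.5 and 451.5 bp away. The same core lies 252.5 bp upstream of GTR1 (YML121W), which starts 1130 bp from PHO84 in the opposite direction and shares the PHO84 peaks in its own upstream window. GTR1 was named after its position was seen.

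PHO89 (YBR296C, chromosome II, 796798 to 798522, minus strand) encodes the other high-affinity carrier, which couples phosphate to sodium and works at alkaline pH. The Pho4 summit lay 328 and 335 bp upstream, 7.5 and 14.5 bp from the E-box. The fold was 32.3 and 31.5 (rank 18 of 2005 and 22 of 2190), from 2341 reads (interval 2247 to 2438) and 1154 reads (1088 to 1223). Both libraries thus placed PHO89 above PHO84 by fold and below it by height.

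Neither Cbf1 library had a peak upstream of PHO89, and both lists reach it. The nearest Cbf1 peaks began 3400 and 4555 bp outside the window. A Pho4 peak in both libraries with no Cbf1 peak in either was found at 11.0% of the genes that all 4 lists reach. The E-box of PHO89 had 11 bases in common with the nearer one of PHO84, which had a Cbf1 summit 21.5 bp away in replicate 2. That summit lay 0.5 bp from the other unflanked PHO84 core, so the list does not assign it to the nearer one. No count can be given for Cbf1 at PHO89, since a list holds peaks that passed the authors' threshold, so signal below it was not measured.

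GIT1 (YCR098C, chromosome III, 297049 to 298605, minus strand) encodes the plasma membrane carrier for glycerophosphoinositol, a product of phospholipid breakdown that starved cells can use as a phosphate source. Its Pho4 fold of 39.1 and 38.3 was the highest among the 6 genes in both libraries, and it ranked 5 of 2005 and 4 of 2190. By height it ranked 3 in both lists, with 5779 reads (interval 5631 to 5930) and 2911 reads (2806 to 3019). The summits lay 530 and 503 bp upstream, 14.5 and 12.5 bp on opposite sides of the E-box, so the E-box lies between them.

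By fold, GIT1 was also the highest of the 6 genes in both Cbf1 lists, as far as these reach; by summit height PHO86 was higher in replicate 2. The Cbf1 fold was 6.88 in replicate 1 (rank 70 of 920) and 11.9 in replicate 2 (rank 131 of 1566), from 215 reads (interval 187 to 246) and 248 reads (218 to 281). The Cbf1 summits lay 5.5 and 13.5 bp from the same E-box as those of Pho4, and 510 and 502 bp upstream of GIT1. The Cbf1 peaks were wider, at 798 and 779 bp, than the Pho4 peaks, at 540 and 524 bp. Upstream peaks in all 4 libraries, found at GIT1 and PHO87, were present at 17.1% of the genes that all 4 lists reach.

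The GIT1 peaks also covered both CACGTT motifs of its window, 609.5 and 638.5 bp upstream. They are shown with the E-box in capitals below, with the motif nearer the E-box appearing as its reverse complement. The Pho4 summits lay 79.5 and 106.5 bp from the nearer one, so the summit marked the E-box in both libraries.
GIT1 (chrIII:299103-299261, minus strand): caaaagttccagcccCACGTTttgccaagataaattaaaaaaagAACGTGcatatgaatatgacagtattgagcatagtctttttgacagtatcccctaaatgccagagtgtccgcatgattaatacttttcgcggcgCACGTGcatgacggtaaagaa

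PHO86 (YJL117W, chromosome X, 192531 to 193466, plus strand) encodes a protein of the endoplasmic reticulum that Pho84 needs to leave for the cell surface. The Pho4 fold was 37.0 and 33.7 (rank 9 of 2005 and 16 of 2190), from 3827 reads (interval 3707 to 3950) and 1609 reads (1531 to 1690). The summits lay 190 and 197 bp upstream, 2.5 and 9.5 bp from the E-box, and past the end of the open reading frame YJL118W that starts in the window. Cbf1 replicate 2 had a fold of 6.47 (rank 249 of 1566) from 408 reads (369 to 450), with its summit 28.5 bp from the same E-box. PHO86 thus ranked below GIT1 in that list by fold, though its summit held more reads.

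Other endoplasmic reticulum proteins that release a particular family of membrane proteins were looked at beside PHO86. They were SHR3 (amino acid permeases), GSF2 (hexose transporters) and CHS7 (a chitin synthase). None of the 3 had an upstream Pho4 peak in both libraries, against 33.6% of all genes, a share at which 0 of 3 is unremarkable, and GSF2 had a single one at percentile 3.79 of the Pho4 replicate 1 list. A fold percentile here is the share of a list's nuclear peaks with a fold at or below that of the gene's highest upstream peak.

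PHO87 (YCR037C, chromosome III, 194414 to 197185, minus strand) and PHO90 (YJL198W, chromosome X, 60844 to 63489, plus strand) encode the low-affinity carriers, which are related proteins with an SPX domain. They differed in every list that reaches both. PHO87 had a Pho4 fold of 36.5 and 36.2 (rank 11 of 2005 and 8 of 2190), from 2055 reads (interval 1967 to 2146) and 1008 reads (947 to 1072). PHO90 had no peak in its window in any of the 3 lists that reach it.

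At PHO87 the Pho4 summits lay 125 and 132 bp upstream, 4.5 and 2.5 bp from the E-box, and were the closest to a start codon among the 5 genes. The local background was the lowest of the 5, at 55.3 and 26.8 reads, and so was the summit height, which ranked 25 and 30. By fold PHO87 stood above both high-affinity carriers in both libraries, and by height it stood below both.

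Cbf1 peaks at PHO87 were close to the list medians. In replicate 1 the higher one had a fold of 2.30 (rank 393 of 920) from 52 reads (interval 38.8 to 68.2), and its summit lay 49 bp inside the coding sequence and 178.5 bp from the E-box. In replicate 2 the fold was 3.01 (rank 655 of 1566) from 39 reads (27.7 to 53.3), with the summit 105 bp upstream and 24.5 bp from the E-box. The replicate summits were 154 bp apart, against a median of 46 bp over the 626 overlapping Cbf1 peaks, so the Cbf1 lists do not place a common summit at this E-box. A second peak in replicate 1, with a fold of 2.18, lay 778 bp upstream, inside BUD5.

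PHO90 had neither CACGTG nor CACGTT in its window, and its nearest Pho4 peaks were 5498 and 5521 bp from the window. No upstream peak in either Pho4 library or in Cbf1 replicate 2 was found at 49.1% of the genes those lists reach. Among genes without CACGTG upstream, 27.9% had an upstream peak in both Pho4 libraries, and among genes with it, 78.9% did. The window of PHO90 also holds the start of MBB1, on the other strand.

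**Figure D2:**
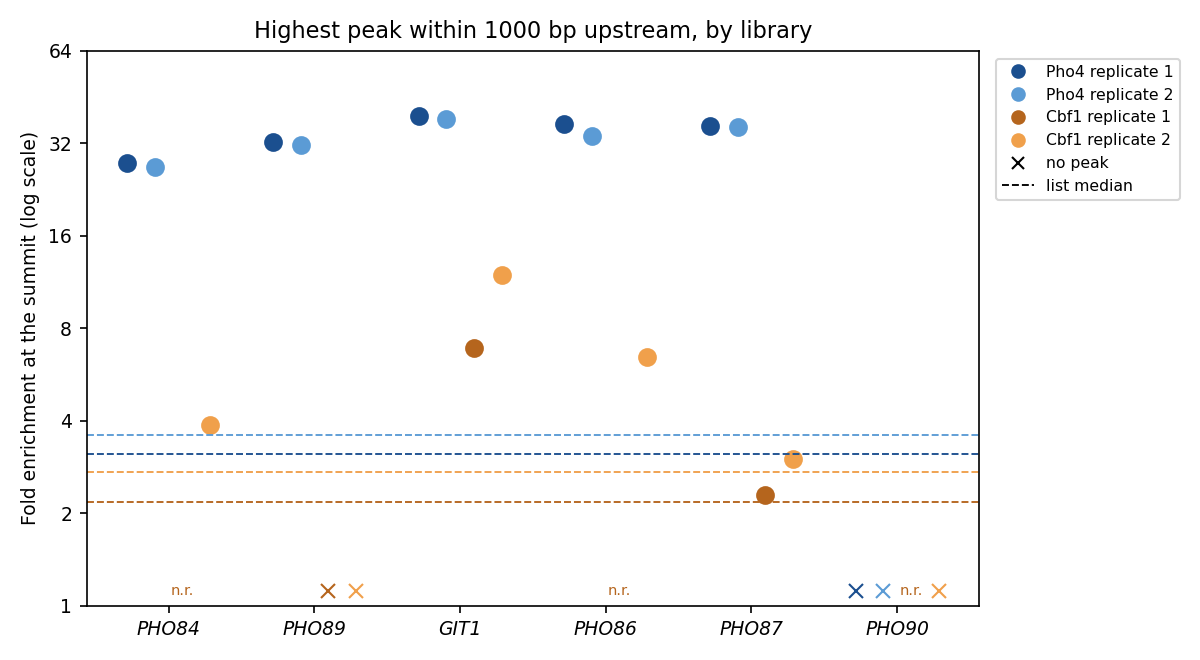
Fold enrichment at the highest upstream peak of each gene in each library, on a log scale, with the median fold of each list as a dashed line of the same colour. Crosses mark genes with no upstream peak and n.r. marks genes that the Cbf1 replicate 1 list does not reach. The 10 Pho4 points lie between 26.7 and 39.1, and the Cbf1 points lie between 2.30 and 11.9; folds are to be read against the list they come from.

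Replicates placed the Pho4 summits close together. The distance was 1 bp at PHO84, 27 bp at GIT1 and 7 bp at each of PHO89, PHO86 and PHO87, against a median of 26 bp over the 1431 overlapping Pho4 peaks. Summit height in replicate 1 was between 1.91 and 2.38 times that in replicate 2, against a median of 1.85 over all overlapping peaks (5th to 95th percentile 1.23 to 2.98). The replicates therefore differed in height at these genes by about as much as elsewhere in the lists.

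The order of the 5 genes by mean Pho4 fold was GIT1, PHO87, PHO86, PHO89 and PHO84. The means were 38.7 ± 0.566 for GIT1, 36.4 ± 0.212 for PHO87, 35.4 ± 2.33 for PHO86, 31.9 ± 0.566 for PHO89 and 27.1 ± 0.636 for PHO84 (SD, n = 2 each). PHO87 and PHO86 are not separated by this spread, since PHO86 was the higher of them in replicate 1 and PHO87 in replicate 2. For the other neighbours in this order the values of one gene lay above those of the next in both libraries. The order holds for fold and turns with −log10 q, by which the mean percentile was 99.9 for PHO84 and GIT1, 99.7 for PHO86, 99.2 for PHO89 and 99.0 for PHO87.

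Pho4 and Cbf1 can be set against each other over PHO89, GIT1 and PHO87, which all 4 lists reach. The number with an upstream peak was 3.0 ± 0.0 for Pho4 and 2.0 ± 0.0 for Cbf1 (SD, n = 2 each). The difference of 1.0 rests on PHO89 alone. The two-sided exact permutation p over the 6 assignments of the libraries was 0.33, the smallest this design allows, so the design cannot pass 0.05.

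The E-boxes give a count that does not start from peaks. Of the 7, 6 had a Pho4 summit within 50 bp in both libraries, against 47.2% of the 746 E-boxes that both Pho4 lists reach. The 6 were the ones without a T flank, and 2 of them share the PHO84 peak. Over the genome a Pho4 summit lay near 66.8% of E-boxes with no T flank (Wilson 95% interval 61.5 to 71.6), 36.1% with T on 1 strand (31.1 to 41.5) and 16.0% with T on both (9.92 to 24.7). Among E-boxes with C or G on both sides, the class of these 6, the share was 79.9% (72.7 to 85.5).

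Of the 3 E-boxes that both Cbf1 lists reach, 1 had a Cbf1 summit within 50 bp in both, the one at GIT1, against 33.6% of 399 E-boxes. In Cbf1 replicate 2 alone, 6 of the 7 had a summit within 50 bp, against 44.4% of the E-boxes it reaches, and the one at PHO89 did not. Among the 6, the unflanked cores of PHO84 share a summit. Over all E-boxes that both Cbf1 lists reach, a summit in both lay near 18.8% of those with no T flank (interval 13.7 to 25.4), 40.7% with T on 1 strand (33.8 to 47.9) and 59.6% with T on both (45.3 to 72.4). Replicate 2 alone had a summit near 29.4% of E-boxes with no T flank (interval 24.7 to 34.5), 52.3% of those with T on 1 strand (46.9 to 57.7) and 70.2% of those with T on both (60.3 to 78.5). Among E-boxes with C or G on both sides, the Cbf1 share was 24.3% in both libraries (16.0 to 35.2) and 37.6% in replicate 2 (30.2 to 45.6).

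**Figure D3:**
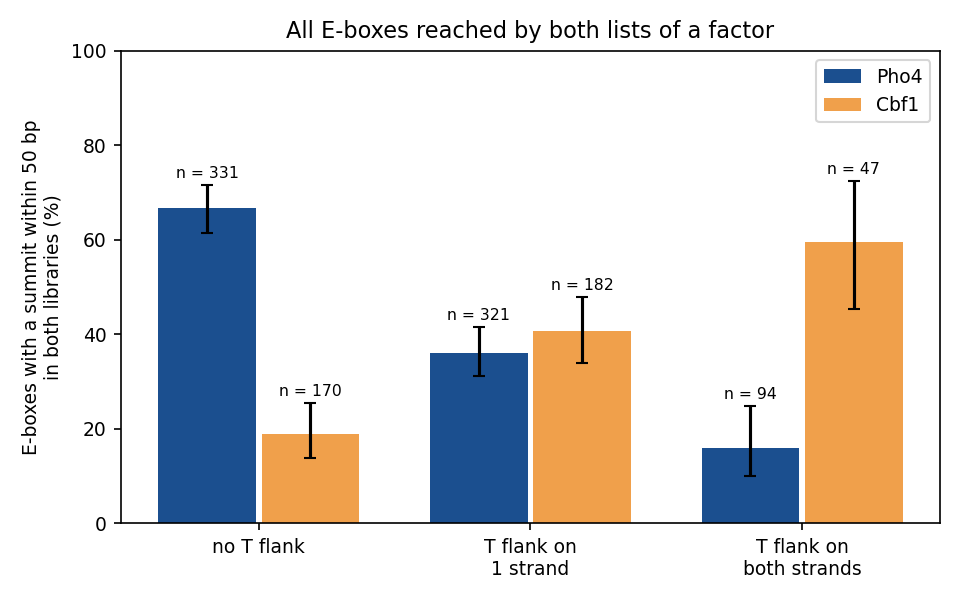
Share of E-boxes with a summit within 50 bp in both libraries of a factor, in percent, by the number of strands with a T flank; error bars are 95% Wilson intervals over sites and n is the number of E-boxes that both lists reach. The share falls with T flanks for Pho4 and is higher with them for Cbf1; 6 of the 7 transport gene E-boxes are in the leftmost class and 1 is in the rightmost.

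The motif CACGTT, a weaker relative of the E-box, occurred 7 times in the windows of 5 genes, with PHO90 again without one. It occurs upstream of 28.5% of protein-coding genes. None of the 7 had a Pho4 summit within 50 bp in both libraries, against 6.28% of the 2964 CACGTT sites that both Pho4 lists reach, a share near which 0 of 7 is unremarkable. Inside a Pho4 peak in both libraries lay 5 of them, at PHO84, PHO89 and GIT1, against 13.1% of all CACGTT sites; all 5 share the peak with an E-box nearer the summit.

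The transport genes were next set beside a list of 15 other genes drawn up around the PHO regulon, which also holds CTF19. The median fold percentile over the 5 transport genes with Pho4 peaks was 99.5, with a range of 98.6 to 99.8. In the PHO regulon list 12 of the 13 genes that both Pho4 lists reach had an upstream Pho4 peak in both, with a median of 98.6 and a range of 83.6 to 99.9. KCS1 was the one without an upstream peak, and peaks inside the genes of this list were not looked at here. Over all protein-coding genes with an upstream peak in both Pho4 lists the median was 65.4. SPL2, which encodes a small protein that restrains the low-affinity carriers in starved cells, stood at 100.0 and 99.8 in the Pho4 lists and at 88.5 in Cbf1 replicate 2. Cbf1 replicate 2 reaches 13 genes of the PHO regulon list and had an upstream peak at 9, against 28.5% of all genes it reaches. Their median percentile was 84.3, with a range of 75.5 to 90.2. PHO5, PHO11, PHO12 and KCS1 had no upstream peak there, as was the case for PHO89.

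Both Pho4 lists reached 4 other phosphate carriers or related proteins. All 4 had an upstream Pho4 peak in both, against 33.6% of all protein-coding genes reached. Their median percentile was 61.0, near the 65.4 of all genes with such a peak. MIR1 and PIC2, the mitochondrial phosphate carriers, stood at 45.7 and 34.6 and at 47.5 and 59.8 in the Pho4 lists. SYG1, a membrane protein with an SPX domain, stood at 93.2 and 94.6, and PHO88, a protein of the endoplasmic reticulum, at 62.0 and 74.5. In Cbf1 replicate 2, PIC2 and SYG1 stood at 95.2 and 94.8, above each of the 6 transport genes, whose highest value was 91.7 at GIT1, while MIR1 and PHO88 had no upstream peak there. PHO91, the vacuolar phosphate exporter, is reached by Pho4 replicate 2 alone and stood at 92.6.

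**Figure D4:**
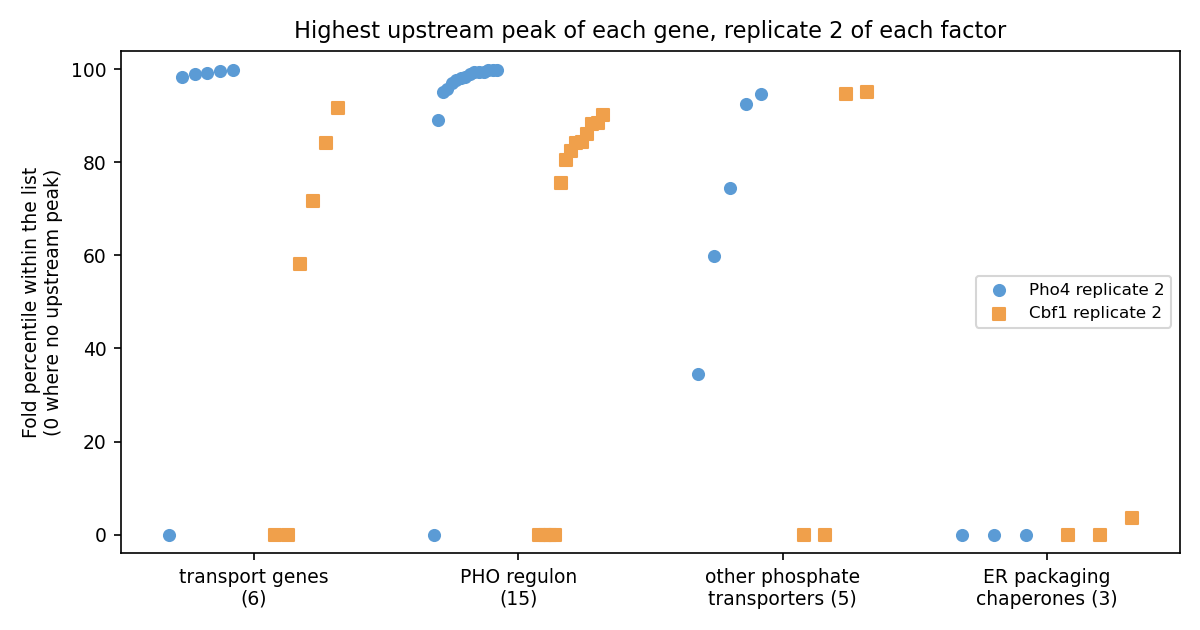
Fold percentile of the highest upstream peak of each gene within the list of Pho4 replicate 2 (circles) and Cbf1 replicate 2 (squares), with 0 for genes without one; genes beyond the end of a list are left out, and points are spread sideways for legibility. The transport genes with a Pho4 peak lie at 98.4 or above; in Cbf1 replicate 2, PHO89 is at 0 with no peak and the other 4 spread from 58.2 to 91.7.

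The genes whose percentiles were most like those of PHO84, PHO89 and GIT1 were found by the mean absolute difference over the lists that reach the gene. For PHO89 they were PHO5, a secreted acid phosphatase, and its neighbour PBY1, which share 1 peak, at a mean difference of 0.691 over 4 lists. PHO5 stood at 98.3 and 97.1 in the Pho4 lists and, like PHO89, had no Cbf1 peak. For GIT1 they were APT2, at 0.528, and SUR2, a sphingolipid hydroxylase, at 1.15. APT2 stood at 100.0 and 99.8 for Pho4 and at 90.9 and 91.9 for Cbf1. For PHO84 they were MIG1, a glucose repressor, and the neighbouring frame YGL034C, which have the same percentiles in the 3 lists compared, at 1.47 over 3 lists.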

How the data were processed

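The authors deposited 1 narrowPeak list per library, without pooling. Cutadapt 1.8.1, Bowtie 1.1.2, SAMtools 1.3.1, bedtools and MACS2 2.1.1, and the build sacCer3 (R64), are named per the submitters' processing notes; the thresholds are not given in the labels or notes. The deposited fold is a ratio of summit height to local background, and the deposited −log10 p and −log10 q columns and the score (10 times −log10 q, cut to a whole number) rank peaks within a list. Positions were used as 1-based R64 coordinates; no peak ran past a chromosome end. Sequences are those of the RefSeq R64 assembly of strain S288C, from which W303 may differ at single bases.

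Mitochondrial peaks were left out. A gene is reached by a list when its body and window precede the list's last peak. Summit height k and background b were solved from fold = (k + 1)/(b + 1) and the Poisson p; a whole k matched −log10 p within 0.001 plus 5e-06 of its value for 99.0% to 99.6% of peaks. The steps were tested on simulated data. Python 3.11.15, pandas 2.3.3 and scipy 1.17.1 were used. The genes and lists were chosen with earlier results of these data known. The text names all 6 genes, the listed genes, and the 2 genes most similar to each of PHO84, PHO89 and GIT1, leaving out genes that share a peak with them. PHO88 is listed as SND3 in R64. Alternatives were windows of 500 bp, summits inside the window, peaks in the upper 50% by −log10 q, distances of 25 and 100 bp, CACGTT added, other percentile bases, a replicate block and each library left out.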

Additional observations from a re-analysis of the deposited data

How the results depend on the processing

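The count of genes with an upstream Pho4 peak in both libraries (5 of 6) was the same under every alternative run, and so was the difference of 1.0 between the factors, from 1.0 to 1.0 with each library left out. With replicate number as a block that difference was also 1.0 (exact sign-flip p 0.5, the smallest that 2 pairs allow). The labels do not say that the numbers pair the libraries, and the counts within each factor were equal, so no correlation of deviations could be had. The Pho4 E-box count of 6 moved to 5, of 5 E-boxes, with windows of 500 bp. Cbf1 counts depend on how far its lists reach. Genes with a Cbf1 peak ranged from 2 to 4, and E-boxes with a Cbf1 summit from 1 to 6, when a Cbf1 library was left out, with the higher values without replicate 1, which leaves 6 genes and 7 E-boxes in place of 3 and 3. With windows of 500 bp the Cbf1 E-box count was 0, since the E-box of GIT1 lies farther out.

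The median Pho4 percentile of 99.5 was 98.9 in the upper 50% of peaks by significance, 99.7 by −log10 q and 99.6 over the region all 4 lists reach, and ranged from 99.3 to 99.5 with 1 library left out. The median Cbf1 percentile of 77.9 over 4 genes rests on replicate 2 alone for PHO84 and PHO86. It was 56.4 in the upper 50% of peaks, 87.3 by −log10 q and, over 2 genes, 74.3 in the region all 4 lists reach. With 1 library left out it ranged from 74.9, over 2 genes, to 77.9. For genes with a peak in both Cbf1 lists the median was 75.0 here (GIT1 and PHO87) and 75.2 over all protein-coding genes. By −log10 q the Pho4 order of the genes changed, with PHO84 at 99.9 in place of 98.6 and PHO87 at 99.0 in place of 99.6. Over single genes and settings the Pho4 percentiles stayed between 97.3 and 99.9, and the Cbf1 percentiles between 21.5 and 92.5. Peaks under the authors' threshold are not in the lists, which limits what an empty window can show.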

Other observations

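Cbf1 replicate 2 also had a peak over the body of PHO84, from 24030 to 25396 on chromosome XIII. It was 1367 bp wide, against a list median of 304 bp, with a fold of 2.89 (rank 708 of 1566) and its summit 655 bp inside the coding sequence. Neither Pho4 list had a peak over the body of PHO84. Among the 6 genes no other peak lay over a gene body without also reaching into the upstream window.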
